A study of Mus musculus with 9 samples.

Results

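The gp130 and JAK-STAT route was followed through 9 genes in adult mouse neural stem cells (NSCs): the receptor chains Il6st, Lifr, Osmr and Cntfr, the kinases Jak1 and Jak2, the transcription factor Stat3, and the feedback inhibitors Socs3 and Cish. They were chosen by name, by the rule that the Ensembl identifier of a row maps to one of these symbols, and all 9 were found among the 55704 genes of the expression table. RNA was sequenced from 9 libraries in 3 groups of 3. NSCs came from the subventricular zone of C57BL/6 mice aged 8 to 9 weeks, with 2 females and 2 males pooled per isolation, so that no library stands for a single animal, and all groups had been expanded in bFGF and EGF for several passages. bFGF/EGF-treated NSCs were taken at day 0 of the treatment, in medium with 20 ng/mL of each of the growth factors. The other groups were moved to new medium 16 to 18 h after plating on an adherent surface and were kept there for 6 days: bFGF/BMP4-treated NSCs with 20 ng/mL bFGF and 20 ng/mL BMP4, and BMP4-treated NSCs with 20 ng/mL BMP4 and neither bFGF nor EGF. In both comparisons with bFGF/EGF-treated NSCs, the factors and the 6 days in culture therefore changed together and cannot be told apart, whereas BMP4-treated and bFGF/BMP4-treated NSCs shared the day and differed in bFGF.

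Cytokines such as LIF, CNTF and oncostatin M act through receptors that contain gp130, the product of Il6st. Receptor assembly activates the JAK kinases bound to the chains, the kinases phosphorylate the receptor and STAT3, and STAT3 dimers enter the nucleus and bind DNA, where Socs3 is a classical target whose product shuts off the same receptor. In the developing brain this route is known to drive the switch of neural precursors to astrocyte production, together with SMAD proteins that act below BMP receptors. The libraries measured RNA, and the phosphorylation of the proteins was not measured.

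Levels are given in FPKM, fragments of a gene scaled to its length and to the library, which can be compared between genes because they are per length. Between 15892854 and 17419822 fragments were assigned to genes in each library. A gene was called changed when limma gave an adjusted p-value of at most 0.05 over the 20207 genes tested and a fold change of at least 2 on the log2(FPKM + 0.1) scale, and each adjusted p-value below is from that fit. Against bFGF/EGF-treated NSCs, 2 of the 9 genes rose in bFGF/BMP4-treated NSCs (Lifr and Il6st) and Socs3 fell, in a comparison in which 30.6% of all genes tested were called. The share of all genes was 16.5% upward and 14.1% downward. In BMP4-treated NSCs, 4 of the 9 (Lifr, Il6st, Osmr and Jak1) rose against the same libraries, where 36.6% of all genes were called, 21.3% upward and 15.4% downward. Between the groups of the same day, 3 of the 9 (Socs3, Il6st and Osmr) were higher in BMP4-treated NSCs, with 13.5% of all genes called, 8.41% higher and 5.14% lower. At the adjusted p-value alone, the counts were 5, 5 and 4 of the 9, with 48.6%, 54.9% and 21.1% of all genes. The libraries of the groups compared did not overlap for 7, 5 and 6 of the 9 genes, beside 57.7%, 60.4% and 38.7% of all genes tested. Osmr was tested only because it is high in BMP4-treated NSCs, and without it 3, 3 and 2 of 8 genes (37.5%, 37.5% and 25.0%) were called. With so few genes, none of these counts is a result about the 9 genes as a set. The median log2 fold change of the 9 was 0.38, 0.96 and 0.27 in the 3 comparisons, beside 0.06, 0.10 and 0 over all genes tested. Each pair of comparisons shares a group of libraries.

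**Figure D1:**
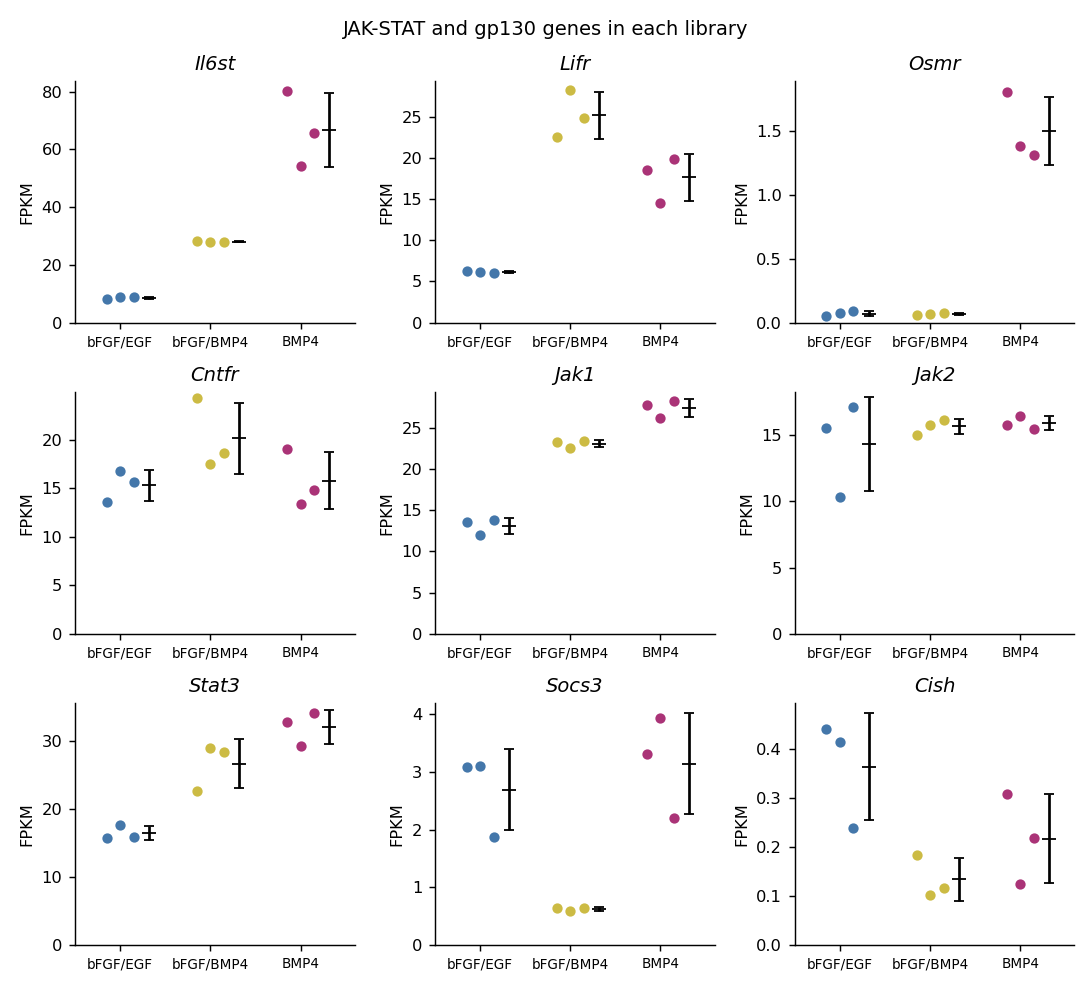
FPKM (vertical axis, linear from 0, own scale in each panel) of the 9 genes in the 3 libraries of each group (horizontal axis), with points for libraries and a bar for the mean and SD (n = 3). Il6st climbs from 8.11 to 8.77 through 27.8 to 28.1 to 54.4 to 80.1 FPKM, Osmr is above 1 FPKM only in the BMP4 group, and Socs3 is low only in the bFGF/BMP4 group.

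The receptor chains did not move together. Il6st encodes gp130, the signalling chain that all receptors of this family share, and lies on chromosome 13 (chr13:112600604-112646620, plus strand, GRCm39). It measured 8.11, 8.73 and 8.77 FPKM in bFGF/EGF-treated NSCs, 28.1, 28.02 and 27.8 FPKM in bFGF/BMP4-treated NSCs, and 80.1, 54.4 and 65.8 FPKM in BMP4-treated NSCs. The 3 groups did not overlap, and the spread was widest in BMP4-treated NSCs (66.7 ± 12.9 FPKM, SD, n = 3). Il6st rose in bFGF/BMP4-treated NSCs (log2 fold change 1.70, SE 0.14, adjusted p = 6.52e-06) and rose further in BMP4-treated NSCs (2.93, SE 0.14, adjusted p = 1.54e-07, against bFGF/EGF). The difference between the day 6 groups also passed the test, at 1.23 on the log2 scale (95% interval 0.93 to 1.54, adjusted p = 1.55e-04).

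Lifr, the chain that pairs with gp130 for LIF, CNTF and cardiotrophin, followed another order. Its levels were 6.33, 6.17 and 6.04 FPKM in bFGF/EGF-treated NSCs, 22.6, 28.3 and 24.8 FPKM in bFGF/BMP4-treated NSCs, and 18.6, 14.5 and 19.9 FPKM in BMP4-treated NSCs. It was highest with bFGF and BMP4 together and lowest in bFGF/EGF-treated NSCs, and the 3 groups did not overlap. Lifr rose by a log2 fold change of 2.01 (SE 0.14, adjusted p = 2.56e-06) in bFGF/BMP4-treated NSCs and by 1.49 (SE 0.14, adjusted p = 1.17e-05) in BMP4-treated NSCs. Between the day 6 groups the log2 difference was -0.52 (95% interval -0.83 to -0.21, adjusted p = 0.0237), which passed the adjusted p-value but not the fold of 2.

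Osmr, the chain that joins gp130 in the oncostatin M receptor, was near the limit of detection in both groups that contained bFGF. It measured 0.05, 0.07 and 0.09 FPKM in bFGF/EGF-treated NSCs (10, 14 and 19 fragments) and 0.06, 0.07 and 0.08 FPKM in bFGF/BMP4-treated NSCs (12, 13 and 14 fragments). In BMP4-treated NSCs it reached 1.80, 1.39 and 1.31 FPKM (355, 272 and 262 fragments), apart from all other libraries. The mean FPKM was 21.4 times that of either other group. The fitted log2 fold change, which the added 0.1 holds down at such levels, was 3.23 (SE 0.29, adjusted p = 1.00e-05) against bFGF/EGF and 3.22 (SE 0.29, adjusted p = 4.91e-05) against bFGF/BMP4. On fragment numbers with limma-voom they were 4.31 and 4.38, and with 1 FPKM added they were 1.22 and 1.22. Osmr passed the filter on low values only through the group in which it was high. Between bFGF/BMP4 and bFGF/EGF the log2 difference was 0.01 (95% interval -0.65 to 0.66, adjusted p = 1.0). With both groups under 0.1 FPKM, this interval on the log2(FPKM + 0.1) scale does not bound the fold change of the FPKM values themselves.

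Cntfr encodes the CNTF-binding subunit, which is anchored to the membrane by a lipid and needs gp130 and LIFR to signal. Levels were 13.6, 16.8 and 15.7 FPKM in bFGF/EGF-treated NSCs, 24.4, 17.5 and 18.7 FPKM in bFGF/BMP4-treated NSCs, and 19.1, 13.4 and 14.9 FPKM in BMP4-treated NSCs. None of its 3 comparisons was called, and the BMP4 libraries overlapped both other groups. The log2 differences were 0.38 (95% interval 0.01 to 0.76, adjusted p = 0.0875) in bFGF/BMP4-treated and 0.03 (-0.35 to 0.41, adjusted p = 0.899) in BMP4-treated NSCs against bFGF/EGF, and -0.35 (-0.73 to 0.02, adjusted p = 0.183) between the day 6 groups.

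Of the kinases, JAK1 is the main partner of gp130, and JAK2 also serves receptors for growth hormone and other cytokines. Jak1 measured 13.6, 11.95 and 13.8 FPKM in bFGF/EGF-treated NSCs, 23.3, 22.6 and 23.4 FPKM in bFGF/BMP4-treated NSCs, and 27.8, 26.2 and 28.3 FPKM in BMP4-treated NSCs. The groups did not overlap, in the order of bFGF/EGF, bFGF/BMP4 and BMP4. Jak1 rose in BMP4-treated NSCs against bFGF/EGF (log2 fold change 1.06, SE 0.10, adjusted p = 1.12e-05), just above the fold of 2. The fold was below 2 on the TPM scale (0.98), with limma-voom on fragments (0.97) and without bFGF/EGF replicate 2 (1.00 after rounding). In bFGF/BMP4-treated NSCs the log2 difference of Jak1 was 0.81 (SE 0.10, adjusted p = 9.32e-05), past the adjusted p-value only, and between the day 6 groups it was 0.25 (95% interval 0.03 to 0.47, adjusted p = 0.113). Raver2, on the opposite strand, overlaps Jak1 and reached 13.2 FPKM, and whether the counting used strand is not given in the sources used here.

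Jak2 had 15.6, 10.4 and 17.1 FPKM in bFGF/EGF-treated NSCs, where replicate 2 was the lowest of all libraries, and 15.03, 15.8 and 16.2 FPKM in bFGF/BMP4-treated NSCs. BMP4-treated NSCs had 15.8, 16.5 and 15.5 FPKM. All groups overlapped. The log2 differences were 0.16 (95% interval -0.22 to 0.53, adjusted p = 0.473), 0.18 (-0.20 to 0.56, adjusted p = 0.393) and 0.02 (-0.35 to 0.40, adjusted p = 0.954), so that a change of 2-fold lay outside each interval.

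Stat3, which encodes the transcription factor that gp130 receptors activate, lies at chr11:100775924-100830450 (minus strand). It measured 15.8, 17.6 and 15.9 FPKM in bFGF/EGF-treated NSCs, 22.6, 29.1 and 28.5 FPKM in bFGF/BMP4-treated NSCs, and 32.9, 29.4 and 34.2 FPKM in BMP4-treated NSCs. The 3 groups did not overlap, although the highest bFGF/BMP4 library was close to the lowest BMP4 library. The log2 difference against bFGF/EGF was 0.69 (SE 0.13, adjusted p = 0.00122) in bFGF/BMP4-treated and 0.96 (SE 0.13, adjusted p = 1.13e-04) in BMP4-treated NSCs, and both passed the adjusted p-value but not the fold of 2. The latter crossed the fold of 2 without bFGF/EGF replicate 2 (1.01) or BMP4 replicate 2 (1.03). Between the day 6 groups the difference of 0.27 (95% interval -0.01 to 0.55, adjusted p = 0.168) was not called. Stat5a, on the opposite strand, overlaps Stat3 and was at most 0.713 FPKM in any library.

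**Figure D2:**
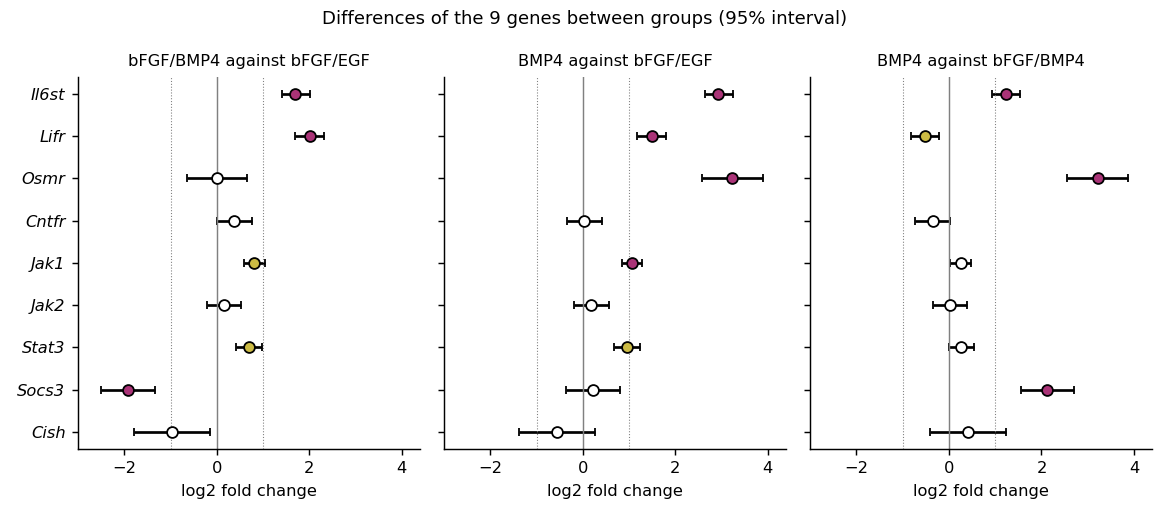
Log2 fold changes (horizontal axis) of the 9 genes (rows) in the 3 comparisons (panels), with 95% intervals from limma and dotted lines at a fold of 2. Purple points pass the adjusted p-value and the fold of 2, yellow points the adjusted p-value only, and white points neither. Socs3 is the gene that lies at -1.92 in the first panel, 0.21 in the second and 2.13 in the third.

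Socs3, whose product binds gp130 and the JAKs and stops them, set bFGF/BMP4-treated NSCs apart. It measured 3.09, 3.11 and 1.88 FPKM in bFGF/EGF-treated NSCs (152, 142 and 96 fragments) and 0.65, 0.59 and 0.63 FPKM in bFGF/BMP4-treated NSCs (30, 26 and 27 fragments). BMP4-treated NSCs had 3.30, 3.93 and 2.20 FPKM (155, 184 and 105 fragments). All bFGF/BMP4 libraries were below all others, and the other groups overlapped. Socs3 fell by 1.92 on the log2 scale in bFGF/BMP4-treated NSCs (SE 0.26, adjusted p = 1.99e-04), and was higher in BMP4-treated than in bFGF/BMP4-treated NSCs by 2.13 (SE 0.26, adjusted p = 2.96e-04). The ratio of the mean FPKM values was 5.05 in the latter comparison. Between BMP4-treated and bFGF/EGF-treated NSCs the log2 difference was 0.21 (95% interval -0.37 to 0.80, adjusted p = 0.517).

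Cish, the SOCS family member best known as a target of STAT5, was the other feedback gene and was low throughout. Levels were 0.44, 0.41 and 0.24 FPKM in bFGF/EGF-treated NSCs (48, 42 and 27 fragments), 0.18, 0.10 and 0.12 FPKM in bFGF/BMP4-treated NSCs (19, 10 and 11 fragments), and 0.31, 0.13 and 0.22 FPKM in BMP4-treated NSCs (32, 13 and 23 fragments). The bFGF/BMP4 libraries were below those of bFGF/EGF, and the BMP4 libraries overlapped both. The log2 difference of -0.97 between bFGF/BMP4 and bFGF/EGF (95% interval -1.79 to -0.15) had an adjusted p of 0.0504 and was not called. It was called with limma-voom on fragments (-1.51, adjusted p = 0.00957), and also without bFGF/EGF replicate 3 (-1.19) or bFGF/BMP4 replicate 1 (-1.12). BMP4-treated NSCs differed by -0.56 (95% interval -1.38 to 0.26, adjusted p = 0.222) from bFGF/EGF and by 0.41 (-0.41 to 1.23, adjusted p = 0.501) from bFGF/BMP4.

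Because Socs3 and Cish are textbook STAT targets and BMP4 acts through SMAD1 and SMAD5, the promoters of the 9 genes were searched for the letters these factors are known to prefer. Windows of 250 bases before and 50 bases from each RefSeq start site (table of GRCm38.p6, placed in GRCm39 by exact match) were available for all 9 genes. TTCNNNGAA, the STAT-type palindrome, was present in 8.30% of 32851 windows, the same arms TTC and GAA with a spacing of 4 in place of 3 bases in 6.95%, and GGCGCC, a SMAD1/5-type site, in 11.9%. Each pattern reads the same on both strands, and no match overlapped another. Among the 9 genes TTCNNNGAA was found in Socs3 and Cish alone, once and 2 times, and a window with 2 or more matches was found in 0.457% of all windows. The spacing of 4 was found in none. GGCGCC was found in Socs3, Lifr, Cntfr and Jak1, and none of the patterns was found in Stat3, Il6st, Osmr or Jak2. The shares are per window, and Lifr had 2 windows and Cntfr 6. In windows with GGCGCC, G and C made up 71.6% (Socs3), 82.4% (Lifr), 78.4% and 77.2% (Cntfr) and 61.2% (Jak1) of the bases before the start. The values were 60.8% in Stat3, 66.0% in Il6st and Osmr, and 80.8% in Jak2. The stretches of 30 bases around the matches are shown for the feedback genes and for the receptor and kinase genes that rose, 5′ to 3′ on the strand of the gene, with the match in capitals.

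Socs3, STAT-type, chr11:117860327-117860356, minus strand: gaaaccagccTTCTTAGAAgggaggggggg
Cish, STAT-type, chr9:107173853-107173882, plus strand: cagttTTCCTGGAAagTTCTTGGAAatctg
Socs3, SMAD1/5-type, chr11:117860236-117860265, minus strand: tcggccaaggctGGCGCCgcgcccgccggt
Lifr, SMAD1/5-type, upstream match, chr15:7158847-7158876, plus strand: ggcacctccctgGGCGCCgggcccgcgcgc
Lifr, SMAD1/5-type, downstream match, chr15:7159016-7159045, plus strand: gagctcctcgcaGGCGCCgcctccgggcgc
Jak1, SMAD1/5-type, chr4:101122446-101122475, minus strand: ttggaggggcggGGCGCCggtgcgttttta

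The Socs3 STAT-type match began at base -154 from the start site. The stretch lay in untranslated exon sequence of 1 of the 8 GENCODE vM39 transcripts and in an intron of 3 others. The Cish matches began at bases 1 and 12, separated by the letters shown in lower case, and the stretch overlapped untranslated exon sequence of 2 of the 5 transcripts. Of the Lifr stretches, the downstream one lay in untranslated exons of 7 of the 15 transcripts, and the upstream one in an intron of 1. The Jak1 stretch lay in untranslated exons of 29 of its 46 transcripts. Binding was not measured, and a match is a description of letters. Lifr and Jak1 rose and held GGCGCC, Il6st and Osmr rose with none of the 3 patterns in the window, and Cntfr held GGCGCC and was not called. Any part of the matches in the RNA differences was not tested.

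**Figure D3:**
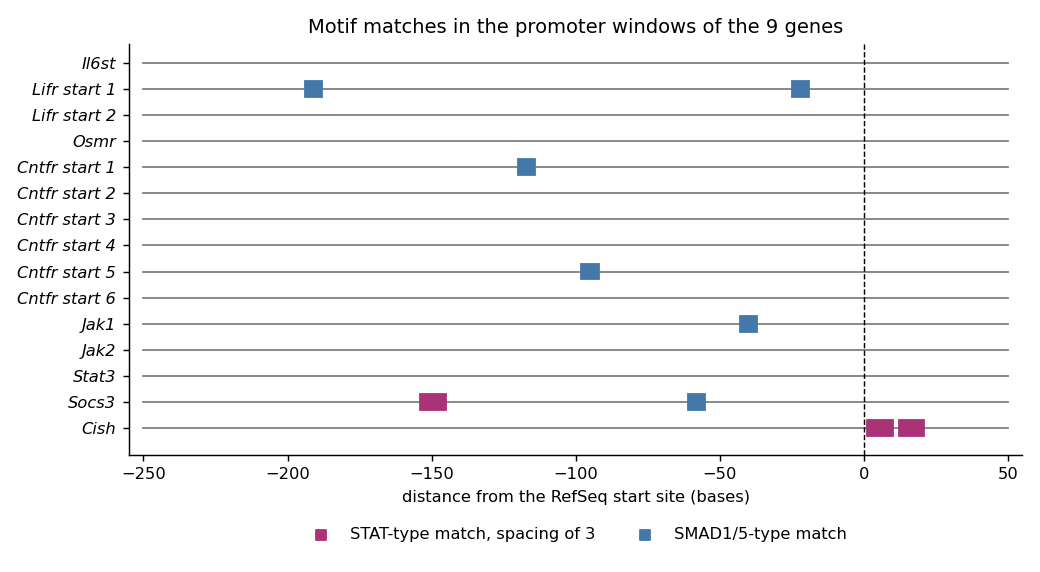
Matches to the STAT-type and SMAD1/5-type patterns (coloured boxes) by distance in bases from the RefSeq start site (horizontal axis, start site as a dashed line) in each window of the 9 genes (rows). STAT-type boxes appear in the Socs3 window at base -154 and in the Cish window at bases 1 and 12, and the boxes of Cntfr start 1 and start 5 are a single place seen from neighbouring start sites.

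Ranked by mean FPKM, the 9 genes stood in different orders in the 3 groups. In bFGF/EGF-treated NSCs, Stat3 (16.5), Cntfr (15.3), Jak2 (14.4) and Jak1 (13.1) led, each overlapping the next over the 3 libraries, followed without overlap by Il6st (8.54), Lifr (6.18), Socs3 (2.69), Cish (0.364) and Osmr (0.0701). In bFGF/BMP4-treated NSCs, Il6st (27.97), Stat3 (26.8), Lifr (25.3), Jak1 (23.1) and Cntfr (20.2) overlapped in turn, with Jak2 (15.7), Socs3 (0.622), Cish (0.134) and Osmr (0.0701) below. In BMP4-treated NSCs, Il6st (66.7), Stat3 (32.2), Jak1 (27.4) and Lifr (17.7) came first without overlap among the leading 3, Lifr overlapped Jak2 (15.9) and Jak2 overlapped Cntfr (15.8), and Socs3 (3.14), Osmr (1.501) and Cish (0.216) closed the order. Il6st thereby stood above 72.2%, 91.2% and 96.7% of the genes tested in the 3 groups, whereas Osmr stood above 9.0%, 5.5% and 42.0%.

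Ratios within a library do not depend on its scaling. The ratio of Il6st to Lifr was 1.28, 1.41 and 1.45 in bFGF/EGF-treated NSCs, 1.24, 0.991 and 1.12 in bFGF/BMP4-treated NSCs, and 4.30, 3.75 and 3.31 in BMP4-treated NSCs. The gp130 chain was thus in excess of its LIF receptor partner in RNA by 3.31 to 4.30 in BMP4-treated NSCs, and the groups did not overlap. For Socs3 to Stat3 the ratio was 0.195, 0.176 and 0.118, then 0.0285, 0.0201 and 0.0223, then 0.1002, 0.134 and 0.0644 in the same order of groups. The bFGF/BMP4 libraries were below all others, and those of the other groups overlapped. Jak1 to Jak2 went from 0.874, 1.15 and 0.805 to 1.55, 1.43 and 1.45 and to 1.76, 1.59 and 1.83, with no overlap. Lifr to Cntfr was 0.466, 0.369 and 0.385 in bFGF/EGF-treated NSCs, below the range of 0.929 to 1.62 in the other groups. With 3 libraries a group, an exact two-sided permutation test cannot give a p below 0.1, which was the value for 16 of the 18 ratio comparisons made (Benjamini-Hochberg adjusted 0.112), among them those of Il6st to Lifr. The exceptions were Lifr to Cntfr between the day 6 groups (exact p = 0.7) and Socs3 to Stat3 between BMP4 and bFGF/EGF (exact p = 0.2).

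**Figure D4:**
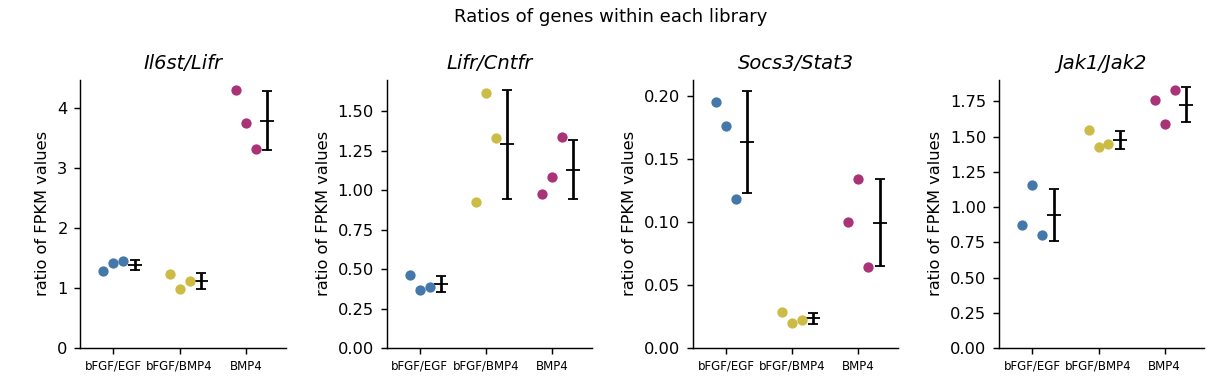
Ratios of FPKM values of gene pairs within each library (vertical axis, linear from 0), by group (horizontal axis), with points for libraries and a bar for the mean and SD (n = 3). Il6st/Lifr is 3.31 to 4.30 in the BMP4 group and at most 1.45 in the others, and Socs3/Stat3 is at most 0.0285 in the bFGF/BMP4 group.

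The rest of the pathway was taken from 8 lists with 72 other genes, of which 57 passed the filter on low values. Against bFGF/EGF-treated NSCs, 11 rose and 6 fell in bFGF/BMP4-treated NSCs and 21 rose and 7 fell in BMP4-treated NSCs, and between the day 6 groups 11 were higher and 1 was lower in BMP4-treated NSCs. The calls made up 29.8%, 49.1% and 21.1% of the 57, beside 30.6%, 36.6% and 13.5% of all genes tested, so that the first share was close to the background. The lists were chosen with earlier results of these data known, so that none of these shares is a result about the pathway. The median log2 fold changes of the 57 were 0.04, 0.21 and 0.15, beside 0.06, 0.10 and 0 over all genes.

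Among the ligands, 5 of 11 were tested. The transcripts of IL6, IL11 and oncostatin M did not pass the filter on low values. Clcf1, which encodes a ligand of the CNTF receptor, was also lowest in bFGF/BMP4-treated NSCs: 1.01, 2.28 and 1.87 FPKM in bFGF/EGF-treated NSCs, 0.0818, 0.0856 and 0.0357 FPKM in bFGF/BMP4-treated NSCs (5, 5 and 2 fragments), and 2.06, 2.35 and 1.15 FPKM in BMP4-treated NSCs. It fell by 3.38 on the log2 scale in bFGF/BMP4-treated NSCs (adjusted p = 4.4e-05) and was higher by 3.50 in BMP4-treated than in bFGF/BMP4-treated NSCs (adjusted p = 1.1e-04). Ctf1, cardiotrophin 1, a ligand of LIFR and gp130, rose in both treatments, from 0.569 ± 0.144 to 3.13 ± 0.184 and 4.13 ± 0.872 FPKM (SD, n = 3). Lif, named here after its values were seen, fell in bFGF/BMP4-treated NSCs (1.04 ± 0.292 to 0.327 ± 0.0971 FPKM) and was not called in the other comparisons. Between the day 6 groups its log2 difference was 0.95 (adjusted p = 0.0488), higher in BMP4-treated NSCs and past the adjusted p-value only.

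Of the other receptors of the family, Il11ra1 and Il6ra were the 2 of 4 tested. Il11ra1, the IL11 receptor, rose from 1.64 ± 0.218 FPKM to 11.1 ± 0.774 FPKM in bFGF/BMP4-treated and 9.24 ± 2.73 FPKM in BMP4-treated NSCs. Il6ra, the IL6 receptor and also chosen after its values were seen, fell from 0.874 ± 0.247 FPKM to 0.0175 ± 0.0115 FPKM in bFGF/BMP4-treated NSCs (2, 4 and 1 fragments) and 0.336 ± 0.0481 FPKM in BMP4-treated NSCs. It was called in all 3 comparisons.

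Of 8 other JAK and STAT genes, 7 were tested, all but Stat4. Jak3, a kinase known from lymphocyte cytokine receptors, rose from 0.217 ± 0.0517 to 1.53 ± 0.134 and 4.74 ± 0.591 FPKM, and Stat2, a factor of interferon signalling, from 1.51 ± 0.263 to 3.41 ± 0.0751 and 7.51 ± 0.851 FPKM. Both were called in all 3 comparisons and were lower in level than Stat3 in every group.

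The 15 other inhibitors gave 0 calls in bFGF/BMP4-treated NSCs by limma, where 30.6% of all genes tested were called. Of the 15, 6 were past the adjusted p-value alone (48.6% of all genes), 7 at an unadjusted p under 0.05 and 1 called by limma-voom. In BMP4-treated NSCs 2 rose and 2 fell, 26.7% of the list beside 36.6% of all genes. Ptpn1, the phosphatase PTP1B, fell in BMP4-treated NSCs from 31.3 ± 3.00 to 13.97 ± 0.874 FPKM, and Sh2b3, an adaptor that restrains JAK2, from 5.11 ± 0.176 to 2.40 ± 0.309 FPKM. In bFGF/BMP4-treated NSCs they measured 15.8 ± 0.242 and 2.81 ± 0.208 FPKM, log2 differences of -0.98 and -0.84 that passed the adjusted p-value and missed the fold of 2, and neither was called between the day 6 groups. The risers, Socs1 and Socs2, both named after their values were seen, had mean levels of 0.66 and 1.85 FPKM in BMP4-treated NSCs. Of the SOCS family, Socs2 was higher in BMP4-treated than in bFGF/BMP4-treated NSCs (log2 fold change 2.19, adjusted p = 0.0012), as Socs3 was.

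STAT3 targets moved in both directions. Of 10 tested, 2 rose and 2 fell in bFGF/BMP4-treated NSCs, 6 rose and 2 fell in BMP4-treated NSCs, and 4 were higher in BMP4-treated than in bFGF/BMP4-treated NSCs. These were 40%, 80% and 40% of a list of 10, beside 30.6%, 36.6% and 13.5% of all genes. The first and the last share rest on 4 genes each. The list was chosen with earlier results of these data known, so that none of these shares is a result about the list. Gfap, the intermediate filament of astrocytes, was at 0.0837, 0.0600 and 0.134 FPKM in bFGF/EGF-treated NSCs, at 16.8, 19.9 and 21.6 FPKM in bFGF/BMP4-treated NSCs, and at 3038, 2478 and 2181 FPKM in BMP4-treated NSCs. Its log2 fold changes were 6.67 and 13.71 against bFGF/EGF and 7.03 between the day 6 groups, the last with adjusted p = 3.5e-08. Timp1, a metalloproteinase inhibitor, fell in both treatments and was higher in BMP4-treated than in bFGF/BMP4-treated NSCs (6.69 ± 1.60, 0.464 ± 0.109 and 2.56 ± 0.992 FPKM in the order of groups). Myc, the growth regulator, fell alike in direction in both, from 57.4 ± 14.5 to 5.86 ± 2.56 and 5.29 ± 0.680 FPKM. Bcl6, a transcriptional repressor that is also on the STAT5 target list, rose from 2.37 ± 0.389 to 8.72 ± 1.94 and 8.38 ± 1.06 FPKM. Bcl2l1, which encodes the survival protein BCL-XL and is on both lists, rose in BMP4-treated NSCs alone by the call (log2 fold change 1.07), and its difference between the day 6 groups was 0.86, past the adjusted p-value only. The STAT5 target list had 4 genes tested, of which 1, 3 and 1 were higher by the call in the 3 comparisons. The upward shares of all genes were 16.5%, 21.3% and 8.41%. Bcl6 and Bcl2l1 are already counted among the STAT3 targets, so that these lists do not give separate results.

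Of the 10 STAT3 targets tested, 8 had a RefSeq promoter window, and TTCNNNGAA was found in windows of 2 of these, Gfap and Bcl6. Of the 4 STAT5 targets tested, 3 had a window, and Bcl6 was the 1 with a match. The matches of Gfap and Bcl6 are shown in the same way as those of Socs3 and Cish, with both spacings in capitals.

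Gfap, at the start site, chr11:102788009-102788038, minus strand: atgggggtgcTTCCAGGAAgtcaggggcag
Gfap, spacing of 4, chr11:102788122-102788151, minus strand: caggctggtgTTCCCAAGAAagccttgact
Bcl6, start 1, chr16:23807701-23807730, minus strand: agcaaattagTTCTCAGAAttccagaggcc
Bcl6, start 2, chr16:23800182-23800211, minus strand: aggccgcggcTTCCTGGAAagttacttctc
Bcl6, start 2, chr16:23800136-23800165, minus strand: ggcaggagtgTTCTGTGAAatccttagagc
Bcl6, start 2, chr16:23800102-23800131, minus strand: atcgactacgTTCCGGGAAtgagagggctg

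The Gfap stretches lay in untranslated exon sequence of 19 and 17 of its 24 transcripts. The stretch at Bcl6 start 1 lay outside its 2 annotated transcripts, and those at start 2 lay in an intron of 1 of them. The 4 genes shown with STAT-type matches had different RNA patterns: Socs3 fell in bFGF/BMP4-treated NSCs, Bcl6 rose in both treatments, Gfap rose in both and was higher in BMP4-treated than in bFGF/BMP4-treated NSCs, and Cish was not called. Any part of the matches in these RNA levels was not tested.

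**Figure D5:**
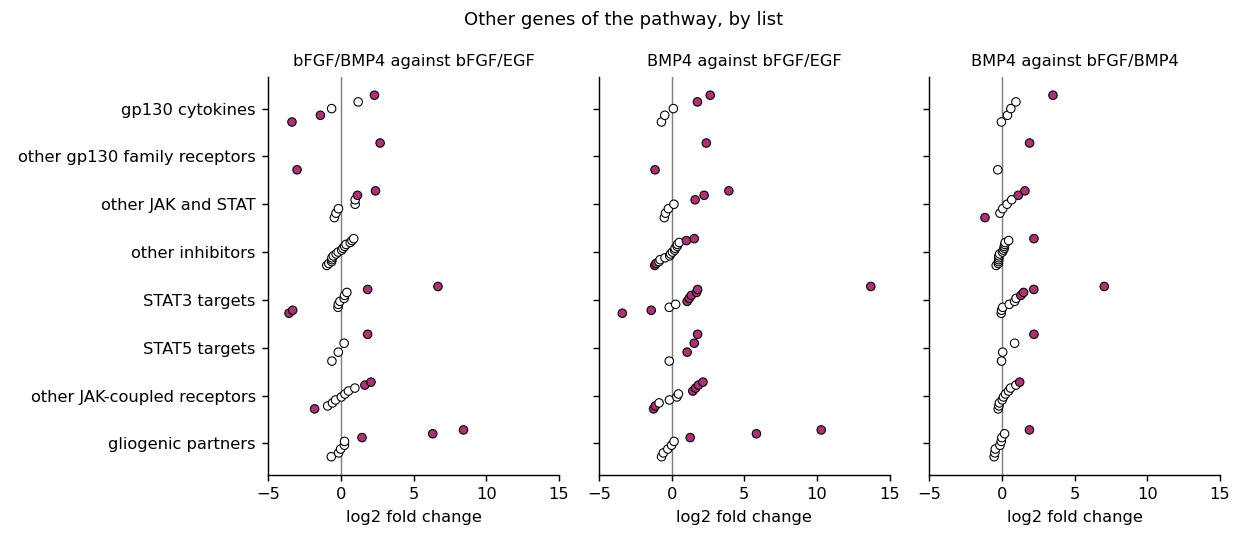
Log2 fold changes (horizontal axis) of the other pathway genes that were tested, by list (rows) and comparison (panels), with each point a gene, purple where it passed the adjusted p-value and the fold of 2 and white otherwise. The inhibitor list has no purple point in the first panel, and the STAT3 target farthest to the right is Gfap, at 6.67, 13.71 and 7.03.

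Of the other receptors that use JAK kinases, 10 of 14 were tested. Ghr, the growth hormone receptor, which signals through JAK2, rose from 0.404 ± 0.114 to 1.98 ± 0.268 FPKM in bFGF/BMP4-treated and 1.68 ± 0.105 FPKM in BMP4-treated NSCs. The chains of the interferon gamma receptor moved apart: Ifngr1, the ligand-binding chain, rose from 7.19 ± 0.587 to 22.6 ± 2.32 and 22.8 ± 2.05 FPKM, and Ifngr2 fell from 10.7 ± 1.78 to 2.94 ± 0.239 and 4.45 ± 0.319 FPKM.

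The list of partners in astrocyte gene activation had 8 genes tested, of which 3 rose in each treatment, a share of 37.5%. Of all genes, 16.5% and 21.3% were called upward, and 30.6% and 36.6% in either direction. With 8 genes this share is not a result about the list. Ncoa1, a nuclear receptor coactivator that also works with STAT3, rose from 9.80 ± 0.962 to 26.7 ± 1.67 and 24.5 ± 5.97 FPKM. Aqp4, the astrocyte water channel, measured 0.527 ± 0.149, 212 ± 24.2 and 778 ± 68.6 FPKM, and S100b, a calcium-binding astrocyte marker, 0.624 ± 0.276, 55.1 ± 5.44 and 40.1 ± 8.43 FPKM. Smad1, Smad5, Ep300, Crebbp and Nfia, the other 5 of the list, had 0 calls by limma and by limma-voom in each comparison, with 1, 2 and 0 of them at an unadjusted p under 0.05. Smad5 measured 30.9 ± 1.61, 19.4 ± 2.15 and 19.1 ± 1.53 FPKM, a difference past the adjusted p-value alone against bFGF/EGF.

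For each of the 5 genes called, the 3 protein-coding genes with the most similar profile over the 9 libraries were searched among 7457 or 7458 genes, by the root mean square difference of centred log2 values. Il6st was closest to Tbc1d2b (0.134), Csf1 (0.157) and Lgals8 (0.196). Lifr was closest to Megf10 (0.099), Npc1 (0.113) and Spire1 (0.132), of which Megf10, an engulfment receptor, went from 2.14 to 9.10 and 6.74 FPKM. Osmr was closest to Pltp (0.296), Tubb3 (0.341) and Tspan17 (0.361), and Jak1 to Metap1d (0.067), Atp2c1 (0.068) and Zfp346 (0.071). Socs3 was closest to Gpx1 (0.218), Lhfpl6 (0.219) and Vim (0.233), and Vim, the intermediate filament vimentin, measured 677, 167 and 892 FPKM on average in the 3 groups. All libraries enter each value, and the groups share them.

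Marker genes of cell types were also read, since in bulk RNA fewer cells of a type and less RNA per cell cannot be told apart. These lists do not separate astrocytes from quiescent NSCs, which are arrested in the cell cycle. The paper states that GFAP is expressed in both, and it concludes that both treatments gave quiescent NSCs rather than astrocytes. Sox2, the stem cell transcription factor, was at 130 to 202 FPKM in bFGF/EGF-treated NSCs and 121 to 149 FPKM in the other groups. Nes, the intermediate filament of NSCs, was at 145 to 157 FPKM in bFGF/EGF-treated NSCs, 2.96 to 3.94 FPKM in bFGF/BMP4-treated NSCs and 10.7 to 20.7 FPKM in BMP4-treated NSCs. Of the 6 stem cell markers, 4 fell in bFGF/BMP4-treated NSCs (Nes, Fabp7, Prom1 and Egfr), and 2 fell (Nes and Egfr) and 1 rose (Prom1) in BMP4-treated NSCs. Slc1a3 had positive log2 differences past the adjusted p-value alone in both (0.82 and 0.62). The summed level of 7 astrocyte markers was 176 to 241, 654 to 742 and 3608 to 4506 FPKM in bFGF/EGF-treated, bFGF/BMP4-treated and BMP4-treated NSCs. Gfap made up most of it in BMP4-treated NSCs, and without Gfap the sum was 176 to 241, 632 to 725 and 1427 to 1467 FPKM. Of the 7, 6 rose in each treatment, and Aldh1l1 fell in both. Between the day 6 groups, 4 were higher in BMP4-treated NSCs, Slc1a2 (log2 fold change -1.43) and Gjb6 (-3.23) were lower, and S100b was not called (-0.47). The 8 oligodendrocyte lineage markers summed to 1564 to 2264, 1320 to 1802 and 243 to 444 FPKM, and 5 of the 7 tested fell in BMP4-treated NSCs. Among the 5, Sox10 passed the filter on low values only through bFGF/EGF-treated NSCs (mean of 0.603 FPKM, and 0 in the other groups). Neuron markers (6 genes) summed to 75.7 to 91.8, 47.6 to 53.3 and 142 to 213 FPKM, and ependymal markers (5 genes) to 8.23 to 12.6, 11.1 to 11.7 and 57.8 to 69.9 FPKM. Foxj1 made up most of the ependymal sum, with means of 8.26, 10.0 and 55.1 FPKM. The 4 ependymal markers tested all rose in BMP4-treated NSCs and were higher there than in bFGF/BMP4-treated NSCs. Of these, Ccdc153 passed the filter on low values only through BMP4-treated NSCs (means of 0.030, 0.074 and 0.653 FPKM in the order of groups). In bFGF/BMP4-treated against bFGF/EGF-treated NSCs, Dynlrb2 fell and the other 3 were not called. The neuron sum was carried by Tubb3: without it the other 5 summed to 50.8 to 74.2, 30.5 to 35.7 and 34.4 to 45.3 FPKM. Against bFGF/EGF, Tubb3 rose in BMP4-treated NSCs, as did Dcx (1.99, 0.342 and 0.384 FPKM, highest in replicate 1), Syt1 fell (-3.15 on the log2 scale), and Map2 was lower past the adjusted p-value alone (-0.71). Microglia markers (8 genes) summed to at most 1.75 FPKM and vascular and fibroblast markers (9 genes) to at most 1.99 FPKM in any library, and Aif1, Ptprc, Itgam, Pecam1 and Cldn5 did not pass the filter on low values. Of those that passed, Tmem119 was at 0 in every bFGF/EGF library and rose to means of 0.257 and 1.34 FPKM in the treatments, and P2ry12 fell in both treatments. Rgs5 rose in both, to means of 0.621 and 0.949 FPKM, and Pdgfrb rose in BMP4-treated NSCs, to a mean of 0.385 FPKM. Pdgfrb passed the filter only through that group, with means of 0.014 FPKM in bFGF/EGF-treated and 0.071 FPKM in bFGF/BMP4-treated NSCs. The part of these marker levels in the differences of the 9 genes was not tested. Libraries of a group correlated at 0.950 to 0.964 with each other and those of different groups at 0.810 to 0.915 on the log2 scale, over genes.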

How the data were processed

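RNA of the 9 libraries had been processed before deposit: the submitters' processing notes name fastp 0.19.7, HISAT2 2.0.5, featureCounts 1.5.0-p3 and mm39, and the authors deposited FPKM values per gene. The annotation release and the strand setting are not given in the sources used here. All 30860 genes above 0 could be rebuilt to whole fragment numbers, from which the depth was taken. Of 55704 genes, 54749 identifiers were matched to GENCODE vM39.

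Because the deposited unit is FPKM, limma 3.58.1 with a trend (R 4.3.3) was fitted to log2(FPKM + 0.1). Genes entered with at least 0.1 FPKM on average, and the 9 libraries shared 1 fit, with group as the only term, two-sided tests, Benjamini-Hochberg adjustment over all genes tested, and calls at an adjusted p of at most 0.05 and a fold of at least 2. Limma-voom on the rebuilt fragments was an alternative. The 9 genes and the lists were chosen with earlier results of these data known. Named beside the 9 genes were, per list, up to 4 genes called in any comparison with a mean of at least 1 FPKM and the largest fold change, and the 3 protein-coding genes (mean of at least 5 FPKM) most like each called gene. Some genes that this rule names are not reported here. The labels do not say that replicates were separate cultures, so that p-values measure the spread between these libraries, which may be technical. Intervals cover 95%. Sequences came from RefSeq promoter windows. Other tools were Python 3.11.15, pandas 2.3.3, numpy 2.4.6 and matplotlib 3.10.9.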

Additional observations from a re-analysis of the deposited data

How the results depend on the processing

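The values were recomputed with 1 FPKM added before the log, without the filter on low values or with it at 1 FPKM, on the TPM scale, with median-ratio scaling, limma-voom on fragments, the replicate block, only the groups compared, other call thresholds and without each library. No call of Il6st, Lifr or Socs3 was lost under the alternatives that keep the fold of 2. Osmr was not tested with the filter at 1 FPKM, which leaves 3 and 2 of the 9 genes called in BMP4 against bFGF/EGF and bFGF/BMP4, and kept its calls under the others. Without a fold threshold 5 of the 9 genes, in place of 3, passed in bFGF/BMP4 against bFGF/EGF, as did 28 other pathway genes in place of 17, and 9819 of all genes in place of 6174 (4271 in place of 2738 between the day 6 groups). With a pseudocount of 1 the counts over all genes were 3544, 4364 and 1449 in place of 6174, 7400 and 2738, and 1800 in the last comparison with a mean FPKM of at least 1. Leaving out a library gave 3 to 4, 4 to 5 and 3 to 3 of the 9 genes, 17 to 21, 24 to 29 and 8 to 12 other pathway genes, and 5740 to 6213, 7000 to 7381 and 2405 to 2719 of all genes. Differences that reversed had not been called: Osmr in bFGF/BMP4 against bFGF/EGF (0 on the TPM scale, -0.08 with limma-voom, -0.09 to 0.08 without a library), Jak2 against bFGF/EGF (-0.06 to 0.30 in bFGF/BMP4 and -0.04 to 0.32 in BMP4 without a library, the lower ends without bFGF/EGF replicate 2) and between the day 6 groups (-0.05 on the TPM scale, -0.01 to 0.04), Socs3 in BMP4 against bFGF/EGF (-0.02 to 0.44) and Cntfr in the same comparison (-0.06 on the TPM scale, -0.07 with limma-voom, -0.11 to 0.14). The cause was not tested. Equal replicate numbers did not pair the libraries (correlations of same-numbered deviations -0.084 to 0.125), and with the replicate block no call of the 9 genes changed (Socs3 -1.92, adjusted p = 2.69e-04, in bFGF/BMP4 against bFGF/EGF). Depth limits Osmr and Cish most: Cish had 10 to 48 fragments over all groups, and Osmr had 10 to 19 outside the BMP4 group.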
